A study of Oryza sativa with 23 samples.

Results

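The drought response of wild-type roots of the rice cultivar IR64 (IR64-WT) was measured by comparing 3 arrays of droughted roots with 3 arrays of well-watered roots, 6 of the 23 arrays of the series. Loci were taken as expressed where the probe was well above background on all 3 arrays of at least 1 of these groups, which held for 21597 of the 52901 rice loci on the array (40.8%). Droughted plants went through a soil drydown that began at 75% of field capacity, and well-watered plants stood in soil held at 1.2 times field capacity. Roots of both groups were sampled at 25 days after sowing, and neither group carried a transgene. The other genotypes drawn on here are IR64-Tr-E2, a transgenic event of IR64 that overexpresses the transcription factor gene OsNAM12.1 (3 drought and 2 well-watered arrays), and NIL-481-B, a near isogenic line of the cultivar Vandana that carries the qDTY12.1 locus for yield under drought (3 arrays each). Their droughted plants also went through the drydown, and when well watered IR64-Tr-E2 stood in soil of the same wetness as IR64-WT, while the soil of NIL-481-B was kept at field capacity. It is not stated if an array held RNA of a single plant or of several, so p-values measure only the spread between arrays.

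A root that loses water accumulates the hormone abscisic acid, which is sensed through receptors that hold back protein phosphatases of the 2C type and thereby free kinases that act on transcription factors of the bZIP class. Among the genes this pathway is known to switch on are those for dehydrins and other late embryogenesis abundant (LEA) proteins, small hydrophilic proteins that protect membranes and enzymes when cells dry and that are also made in ripening seeds. Other known parts of the response are sugars and other solutes that hold water, chaperones, and enzymes that remove reactive oxygen.

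Between 35.3% and 64.2% of the spots on the 6 arrays were well above background, against 31.6% to 64.2% over the series. The 2 dimmest of the 6 were drought replicate 2 (39.3%) and well-watered replicate 3 (35.3%), which lay on the same slide, with 1 array of each group. Over expressed loci the correlation of log2 signals was 0.90 to 0.94 between drought arrays, 0.83 to 0.89 between well-watered arrays and 0.62 to 0.84 between an array of each group. The median SD of a locus over its 3 arrays was 0.41 under drought and 0.53 when well watered. The marker lists for leaf photosynthesis and for root uptake matched 0 of the described loci, so the labelled tissue could not be checked against its markers.

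Drought raised more loci than it lowered. All values below are log2 normalized signals, differences are drought minus well watered in the limma fit of all 23 arrays with their standard error (SE), and n = 3 arrays in each group. At a change of more than 2-fold with a Bonferroni-adjusted p below 0.05, the threshold of the study's methods, 130 loci were higher (0.246% of the 52901 tested) and 29 were lower (0.0548%). With Benjamini-Hochberg adjustment in limma, 1670 loci were higher (3.16%) and 969 lower (1.83%). The last adjustment is meant wherever a locus is called below without a further word. The median difference over all loci was -0.03, and over expressed loci -0.01. A fit of the 6 IR64-WT arrays alone, which estimates the spread from fewer arrays, left 0 higher and 2 lower with Bonferroni adjustment and 148 higher and 90 lower with Benjamini-Hochberg adjustment, where 7538 loci had an unadjusted p below 0.05.

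Large changes were mostly rises from a low level. Of the 130 rises, 123 were expressed by the definition above, and the median signal was 9.42 under drought and 4.02 when well watered. On the well-watered side, 40 of the 130 had no array well above background and 45 had all 3. The 29 falls ran the other way, with a median signal of 2.82 under drought and 8.06 when well watered, and 9 of them were still well above background on all 3 drought arrays. Among expressed loci, 161 had a mean more than 16-fold higher under drought and 47 more than 16-fold lower. At more than 64-fold the numbers were 60 and 6. Of the 16858 loci well above background on all 6 arrays, 841 were called higher and 589 lower, and 42 were more than 16-fold higher against 11 lower.

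**Figure D1:**
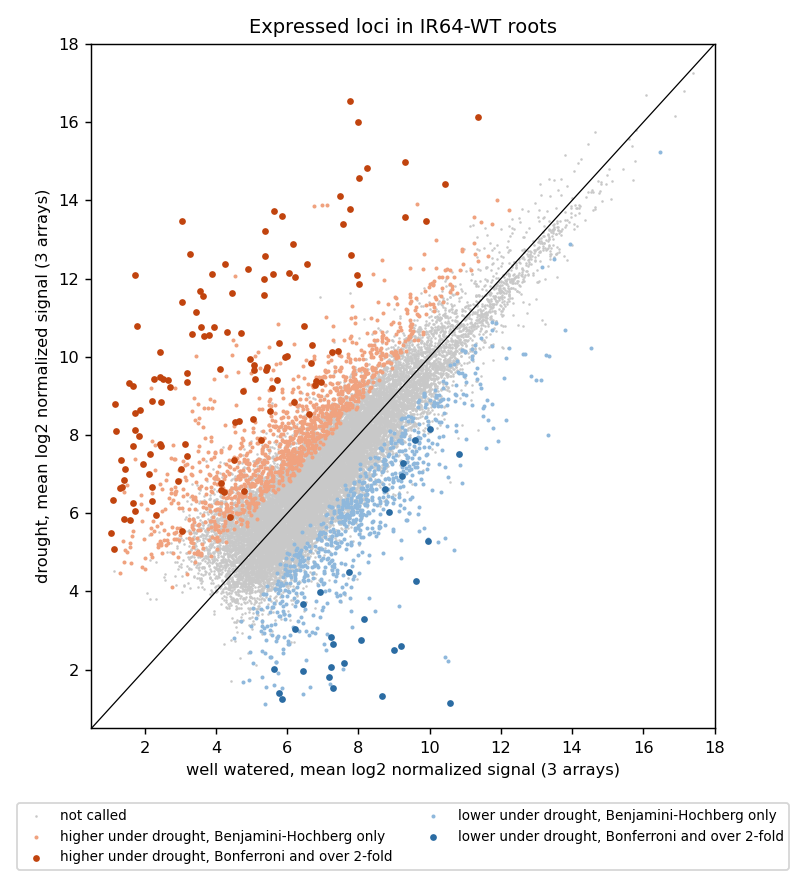
Mean log2 normalized signal of each expressed locus over the 3 drought arrays (vertical axis) and the 3 well-watered arrays (horizontal axis) of IR64-WT. Each point is a locus, the line marks equal signal, and the 123 expressed loci called higher with Bonferroni adjustment lie mostly at the left, where the well-watered signal is low.

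Directions were also read within slides. Slides 2 and 3 each carried 1 drought and 1 well-watered array, and all 130 rises and all 29 falls had the same direction on both, with medians of 5.89 and 4.18 for the rises and -4.88 and -4.44 for the falls. The loci were called on values that include these arrays, so the shared direction is a description. The changed loci lay on every chromosome. The share of expressed loci called higher was between 4.58% (chromosome 12) and 7.54% (chromosome 1), and the share called lower between 2.88% (chromosome 12) and 4.19% (chromosome 10).

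Functions can be given for 551 of the loci, those that the study described when it compared IR64-Tr-E2 with IR64-WT. It lists 394 of them as OsNAC downregulated, 143 as OsNAC upregulated and 14 as lying in the qDTY12.1 region. In IR64-WT roots drought raised 292 of the 394 (74.1%, median difference 3.18, 92 with Bonferroni adjustment) and 1 of the 143 (median 0.44), the last count being 0 to 4 when 1 array was left out. In the region 5 were called higher and 1 lower (median 1.05). These lists were chosen by the study on these same samples, so neither the counts nor those of the functional groups below, which are drawn from them, are independent evidence of a direction. Over all 551 the share called higher was 54.1%. The dehydrin, LEA, heat stress factor and MYB loci below are all on the OsNAC downregulated list. Of the 1670 loci called higher 298 are described, and of the 969 called lower 1 is, so the groups below say much about rises and little about falls.

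**Figure D2:**
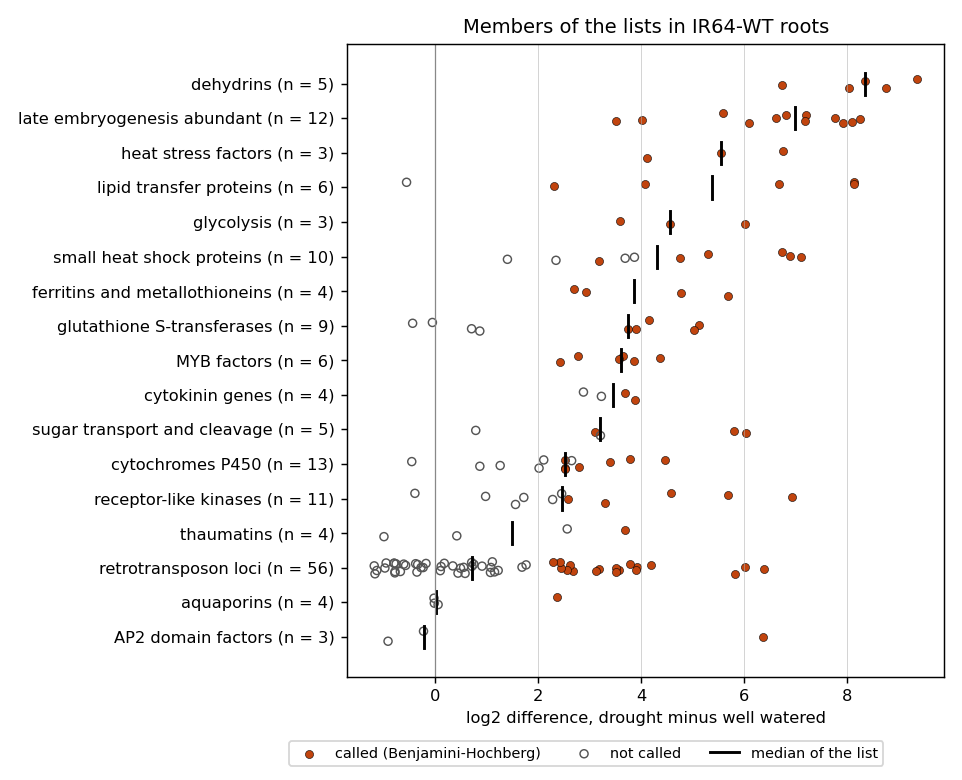
Difference in log2 normalized signal between drought and well-watered roots of IR64-WT for each member of the functional groups with at least 3 described loci. Filled points were called after Benjamini-Hochberg adjustment over all 52901 loci, open points were not, and the bar marks the group's median, from 8.35 for dehydrins to -0.23 for AP2 domain factors.

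Dehydrins had the highest median difference of the groups with at least 3 described loci. All 5 were called higher, also with Bonferroni adjustment, with differences of 6.73 to 9.36 and a median of 8.35. LOC_Os11g26760 had signals of 16.46, 15.61 and 17.54 in drought roots, against 6.28, 8.55 and 8.49 in well-watered roots. It was the brightest dehydrin and rose by 8.76 (SE 0.79, Benjamini-Hochberg adjusted p = 4.02e-06, limma). LOC_Os11g26570 had signals of 13.17, 11.08 and 13.61 in drought roots, against 3.56, 3.20 and 3.01 in well-watered roots, of which 1 array was well above background. LOC_Os11g26780 reached 16.21, 15.05 and 16.79 under drought, against 6.75, 8.55 and 8.64 when well watered. In none of the 5 did the arrays of the groups overlap.

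Of the 5 dehydrins, 4 stand close together on chromosome 11. Locus numbers follow the order of genes along a chromosome, and LOC_Os11g26750, LOC_Os11g26760, LOC_Os11g26780 and LOC_Os11g26790 lie within a stretch of 14 loci on the array of which 5 were called higher. The fifth is the undescribed LOC_Os11g26890, which rose by 1.40. The stretch was picked for its calls, so its share is a description, against 3.16% called higher over all loci. LOC_Os11g26750 had signals of 11.82, 9.71 and 12.65 in drought roots, against 4.17, 3.80 and 1.14 in well-watered roots, and LOC_Os11g26790 rose by 6.73. Neighbours of 1 family can share sequence. The study reports a pilot meant to find and leave out probes that might bind RNA of several family members. Whether a probe used here also bound its neighbour's RNA was not tested.

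All 12 other LEA and seed maturation loci rose too, by 3.50 to 8.24 (median 7.00), 10 of them with Bonferroni adjustment. The LEA protein D-34 locus LOC_Os06g23350 had signals of 12.83, 10.75 and 12.81 in drought roots, against 4.30, 3.54 and 3.82 in well-watered roots (difference 8.24, SE 0.54, Benjamini-Hochberg adjusted p = 2.42e-07, limma). The group 3 LEA locus LOC_Os05g46480 was the brightest of the group, at 14.55, 12.57 and 15.17 under drought, against 6.77, 7.79 and 7.85 when well watered. The locus of the seed maturation protein PM41, LOC_Os01g46600, had 13.94, 12.46 and 14.77 in drought roots, against 5.60, 5.14 and 6.16 in well-watered roots. Group 1 is represented by LOC_Os06g21910, which rose by 7.92, and LOC_Os06g02040, for which no well-watered array was well above background. In such a case the fold is given as a lower bound, the mean of the brighter group over that of the dimmer group, with the faintest signal that still counted as well above background on an array standing in for the locus, and it was at least 50.1-fold for LOC_Os06g02040 (Benjamini-Hochberg adjusted p = 2.87e-06, limma).

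Of the loci called with Bonferroni adjustment, the 2 with the largest rises are described only as expressed proteins. LOC_Os01g68290 had signals of 14.06, 12.44 and 13.93 in drought roots, against 3.42, 3.13 and 2.61 in well-watered roots, of which 1 array was well above background. The difference was 10.42 (SE 0.65, Benjamini-Hochberg adjusted p = 1.61e-07, limma). LOC_Os10g39610 was at 12.60, 10.45 and 13.19 under drought and was not well above background on any well-watered array, a rise of at least 339-fold. No function is given for either.

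**Figure D3:**
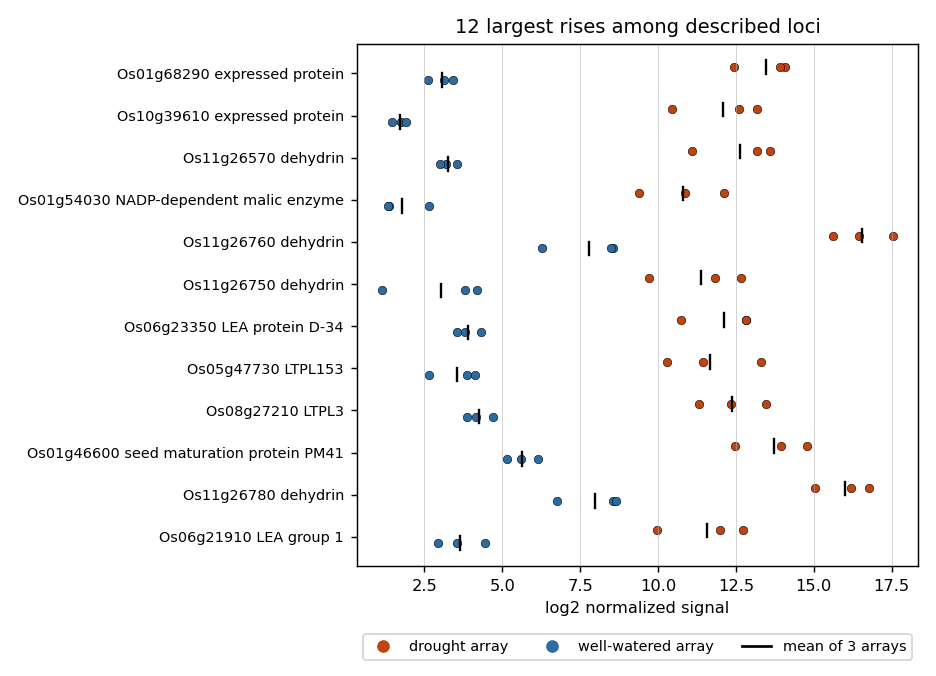
Log2 normalized signal on each of the 3 drought and 3 well-watered arrays of IR64-WT for the 12 described loci with the largest rises, with the mean of each group as a bar. The groups do not overlap in any of the 12, and drought replicate 2 is the lowest drought array in all 12.

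Drought replicate 2 was the lowest of the drought arrays in all 12 of the largest rises, and it is also the drought array with the fewest spots well above background. The part of this in the size of the rises was not tested. Without the 2 IR64-WT arrays of that slide, all 130 rises and all 29 falls were still called with Benjamini-Hochberg adjustment, and 116 and 6 with Bonferroni adjustment over all loci.

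Heat stress transcription factors rose, and so did part of the small heat shock proteins, the chaperones that these factors are known to switch on. The 3 described heat stress factors were all called higher (median 5.56, 1 with Bonferroni adjustment). The brightest, LOC_Os01g53220, had 11.11, 9.27 and 11.28 in drought roots, against 3.27, 2.85 and 5.30 in well-watered roots (difference 6.75, SE 0.73). Of its well-watered arrays 1 was well above background. Of the 10 small heat shock proteins 6 were called higher (60%), 0 with Bonferroni adjustment, and the median was 4.32. All 10 are on the OsNAC downregulated list, of which 74.1% were called, so this share is no higher than that of the list they are drawn from.

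The brightest of them under drought were 3 neighbours on chromosome 1. LOC_Os01g04380 had signals of 13.82, 13.65 and 14.11 in drought roots, against 6.22, 8.60 and 5.43 in well-watered roots (difference 7.11, SE 1.14, Benjamini-Hochberg adjusted p = 0.00151, limma). LOC_Os01g04370 and LOC_Os01g04360 rose by 6.90 and 6.75 and had nearly the same signal on each array, and whether their probes tell them apart was not tested. Well-watered replicate 2 was the highest well-watered array in all of these. Among the other chaperones, the DnaJ locus LOC_Os01g42190 rose at least 19.7-fold, and the DnaJ locus LOC_Os11g10990, with a difference of 3.06, was not called (Benjamini-Hochberg adjusted p = 0.13, limma).

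Among other transcription factors, all 6 described MYB loci were called higher, by 2.42 to 4.37 (median 3.61), against 0 of them in the fit of the 6 IR64-WT arrays alone. The brightest, LOC_Os04g42950, had 9.93, 7.90 and 9.55 in drought roots, against 5.12, 5.03 and 4.11 in well-watered roots. Of the 3 AP2 domain factors 1 was called, the only 1 of them on the OsNAC downregulated list. This locus, LOC_Os04g34970, stood at 9.29, 9.02 and 9.32 under drought, against 3.69, 3.65 and 1.20 when well watered, where 1 array was well above background. The AP2 domain locus with the highest mean signal, LOC_Os04g46440, had a difference of -0.23 (SE 1.14) and overlapping groups. A CCCH zinc finger locus, LOC_Os01g53650, rose at least 53.0-fold. The only locus on the list of stress zinc finger proteins, a different one, was not expressed and not called (difference 1.43). The bZIP locus LOC_Os11g05640 rose by 4.33 (SE 0.66), while the bZIP locus LOC_Os03g58250 differed by 0.37 (SE 0.66). Neither of the 2 WRKY loci nor the described NAC locus was called, with differences between -0.41 and 1.44. These loci and the uncalled AP2 and bZIP loci are on the OsNAC upregulated list, of which 1 of 143 was called. The counts therefore cannot describe these families as a whole.

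Both loci described as phosphatases of the 2C type were called higher. The descriptions do not say if abscisic acid receptors act on either. LOC_Os05g49730 had signals of 8.28, 5.96 and 7.96 in drought roots, against 1.13, 2.86 and 1.16 in well-watered roots (difference 5.68, SE 0.81). Of its well-watered arrays 1 was well above background. LOC_Os01g19130 had 6.78, 6.40 and 7.47 in drought roots, against 4.63, 4.83 and 5.33 in well-watered roots (difference 1.95, SE 0.30). The lists of abscisic acid receptors, of its kinases and of its metabolism matched 0 described loci. Of 11 receptor-like kinases, proteins that carry signals across the plasma membrane, 8 are on the OsNAC downregulated list, of which 74.1% were called, and 3 on the OsNAC upregulated list. Of the 11, 5 were called higher (45.5%, against 54.1% of all described loci, median 2.46). Among those called, LOC_Os10g19160 rose by 6.93, with 1 well-watered array well above background. The wall-associated kinase OsWAK111 (LOC_Os10g10030) rose by at least 10.9-fold. Without drought replicate 1, and likewise without drought replicate 3, the number called was 3.

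Some described loci of sucrose cleavage and glycolysis were called higher under drought. Those named below are on the OsNAC downregulated list, of which 74.1% were called, and other loci of these pathways were not read. The sucrose synthase locus LOC_Os03g22120, whose enzyme splits sucrose, had signals of 12.37, 11.09 and 13.67 in drought roots, against 6.75, 7.10 and 5.85 in well-watered roots (difference 5.81, SE 0.67, Benjamini-Hochberg adjusted p = 6.45e-05, limma). The neutral invertase LOC_Os03g20020 rose by 3.10, and the MtN3 family locus LOC_Os03g22590, of a family that includes sugar exporters, by at least 16.5-fold. In all, 3 of 5 loci of sugar transport and cleavage were called (median 3.21).

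All 3 glycolysis loci were called higher (median 4.56). The 6-phosphofructokinase LOC_Os04g39420, which commits hexose phosphate to glycolysis, had 10.42, 9.55 and 10.91 in drought roots, against 6.09, 6.81 and 7.18 in well-watered roots (difference 3.60, SE 0.39). Of 2 phosphoglycerate mutases, LOC_Os03g21260 rose at least 12.9-fold and LOC_Os01g47190 by 4.56 (SE 0.76). The NADP-dependent malic enzyme LOC_Os01g54030, which turns malate into pyruvate, had 10.85, 9.40 and 12.12 in drought roots and was not well above background on any well-watered array, a rise of at least 139-fold (Benjamini-Hochberg adjusted p = 3.63e-07, limma). A transketolase of the pentose phosphate pathway, LOC_Os04g19740, rose by 5.00 (SE 0.62).

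Of the 6 described loci in the category of minor sugars 5 were called higher (median 3.79), and these are on the OsNAC downregulated list. The other, the glycosyl hydrolase LOC_Os04g56930, is on the OsNAC upregulated list, had a difference of -1.12 and was not called. A glycosyltransferase placed in the category, LOC_Os07g10840, had 15.26, 14.04 and 14.43 in drought roots, against 7.24, 8.11 and 8.68 in well-watered roots (difference 6.57, SE 0.58). For trehalose, a sugar that protects drying cells, the synthase LOC_Os02g54820 rose by 1.96 (SE 0.42), and the trehalase that cleaves it, LOC_Os10g37660, by 3.51 (SE 0.77).

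Lipid transfer proteins, which carry lipids to the cell surface, were among the largest rises, with 5 of 6 called higher (median 5.38). LTPL153 (LOC_Os05g47730) had signals of 11.44, 10.30 and 13.30 in drought roots, against 3.85, 4.13 and 2.65 in well-watered roots (difference 8.14, SE 0.87). LTPL3 (LOC_Os08g27210) had 12.35, 11.31 and 13.46 in drought roots, against 4.72, 4.16 and 3.86 in well-watered roots (difference 8.13, SE 0.59). The member that was not called had a difference of -0.56. It is on the OsNAC upregulated list, and the 5 called are on the OsNAC downregulated list, of which 74.1% were called. A thionin locus, LOC_Os06g31280, of a family of small defence peptides, rose by 6.59 (SE 0.66). Of 4 thaumatins, another defence family, 2 are on the OsNAC downregulated list and 2 on the OsNAC upregulated list. Only LOC_Os12g43450, of the former, was called, at 11.67, 11.14 and 13.54 under drought, against 7.15, 8.80 and 9.31 when well watered.

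Metal-binding and detoxifying proteins rose in part. Both metallothioneins, small proteins that bind metal ions, and both ferritins, which store iron, were called higher (median of the 4 loci 3.85). All 4 are on the OsNAC downregulated list, of which 74.1% were called. The metallothionein LOC_Os01g05585 was the brighter of its kind, with 16.11, 16.11 and 16.21 in drought roots, against 11.10, 12.35 and 10.64 in well-watered roots (difference 4.78, SE 0.48). LOC_Os01g05650 had 15.17, 14.28 and 15.51 in drought roots, against 8.90, 10.75 and 8.25 in well-watered roots. The ferritins LOC_Os11g01530 and LOC_Os12g01530 rose by 2.93 and 2.70.

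Of 9 glutathione S-transferases, which join glutathione to toxic compounds, 5 were called higher and the other 4 had differences of -0.44 to 0.87. LOC_Os09g20220 had 11.25, 10.47 and 10.83 in drought roots, against 5.93, 5.39 and 5.88 in well-watered roots (difference 5.12, SE 0.84, Benjamini-Hochberg adjusted p = 0.00178, limma). The 5 called are the 5 members that the study lists as OsNAC downregulated, and the other 4 are listed as OsNAC upregulated. Of 13 cytochromes P450, 7 were called higher (53.8%, against 54.1% of all described loci), 1 with Bonferroni adjustment (median 2.52). Of the 13, 11 are on the OsNAC downregulated list, of which 74.1% were called. Leaving out any 1 array of IR64-WT gave 2 to 4. A peroxiredoxin, LOC_Os07g44440, which reduces peroxides, rose by 3.28 (SE 0.49).

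Hormone and transport loci gave mixed values. Of 4 loci for cytokinin glucosyltransferases and related steps, 2 were called higher (50%). All 4 are on the OsNAC downregulated list, of which 74.1% were called. Those called were the N-glucosyltransferase LOC_Os01g59100, by 3.88 (SE 0.73), and the O-glucosyltransferase LOC_Os05g08480, by at least 7.26-fold. Such enzymes inactivate cytokinins by adding glucose. Without well-watered replicate 1 all 4 were called. Of 2 loci described as gibberellin receptor GID1L2, LOC_Os11g13630 rose by 1.46 (SE 0.39), and LOC_Os01g06220 had 8.10, 8.18 and 7.79 in drought roots, against 10.49, 9.99 and 8.98 in well-watered roots, and was not called (difference -1.80, SE 0.61, Benjamini-Hochberg adjusted p = 0.108, limma). Its groups did not overlap.

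A phosphate transporter, LOC_Os04g10690, rose at least 46.8-fold, the potassium channel LOC_Os07g01810 by 3.47 (SE 0.80) and the plasma membrane ATPase LOC_Os03g48310 by 3.71 (SE 0.48). Of 4 aquaporins, the water channels, 1 is on the OsNAC downregulated list. The other 3 are on the OsNAC upregulated list, of which 1 of 143 loci was called. In all, 1 of the 4 aquaporins was called. That locus, LOC_Os10g35050, was dim, at 5.39, 3.87 and 5.49 under drought, against 3.28, 3.12 and 1.28 when well watered, and it was not called without drought replicate 1, drought replicate 3 or well-watered replicate 3. The brightest, LOC_Os07g26640, averaged 12.41 ± 0.33 in drought roots and 12.43 ± 0.34 in well-watered roots (SD, n = 3 each), a difference of -0.02 (SE 0.66).

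Loci described as retrotransposon proteins were the largest group, with 56 loci, of which 18 were called higher and 0 lower (median 0.71). The share called higher was 32.1%, against 54.1% of all 551 described loci, of which 1 was called lower. Of the 56 loci, 32 are on the OsNAC upregulated list, of which 1 of 143 was called. Another 20 are on the OsNAC downregulated list, of which 74.1% were called, and 4 lie in the qDTY12.1 region. The share therefore cannot describe retrotransposon loci as a whole. A pair of close neighbours on chromosome 7 was bright. LOC_Os07g23660 had 13.78, 13.17 and 14.37 in drought roots, against 6.81, 7.51 and 8.92 in well-watered roots (difference 6.03, SE 0.49), and LOC_Os07g23640 rose by 5.82 (SE 0.54). The locus with the highest mean signal, LOC_Os12g28440, had 11.70, 13.05 and 11.91 in drought roots, against 12.09, 12.74 and 14.23 in well-watered roots, and was not called.

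The candidate genes of the qDTY12.1 locus were read in the same roots through the identifiers that the study gives. Of its 13 candidates 2 were called higher (15.4%) and 1 lower (median 0.30), against 3.16% and 1.83% over all loci. Of the 13, 6 were expressed. OsGDP12.1 (LOC_Os12g29400), a GRAM domain locus, had 12.24, 10.76 and 12.61 in drought roots, against 7.47, 8.28 and 8.30 in well-watered roots (difference 3.85, SE 0.48, also called with Bonferroni adjustment). OsDR12.1 (LOC_Os12g27830), a dehydrogenase or reductase, had 5.29, 3.40 and 6.49 in drought roots, against 1.66, 1.24 and 4.46 in well-watered roots, groups that overlap. It was well above background on 2 drought arrays and 0 well-watered arrays, so it was not expressed by the definition above. Its rise was at least 2.62-fold (Benjamini-Hochberg adjusted p = 0.0404, limma). Within slides its difference was 5.26 on slide 2 and -1.07 on slide 3. OsPOLE19 (LOC_Os12g28770) was lower, at 7.35, 7.59 and 6.97 under drought, against 9.54, 9.90 and 10.01 when well watered (difference -2.51, SE 0.47, Benjamini-Hochberg adjusted p = 0.00503, limma).

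OsNAM12.1 itself (LOC_Os12g29330), the transcription factor of the locus, had 7.00, 6.58 and 4.88 in drought roots, against 7.35, 7.36 and 7.45 in well-watered roots. Every drought array was below every well-watered array, and the difference of -1.23 (SE 0.51) was not called (Benjamini-Hochberg adjusted p = 0.2, limma). The study links 22 other loci on the array in a network to the candidates of the region, and 13 of these were expressed. Of the 22, 2 were called higher (9.09%, against 3.16% over all loci, median 0.18). They were a group 1 LEA locus linked to OsDR12.1, LOC_Os08g23870, by 6.81 (SE 0.58), and the auxin response factor TFB3 (LOC_Os11g32110), by 1.50 (SE 0.25).

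Some loci were measured in 1 of the groups only. On all 3 drought arrays and no well-watered array, 94 loci were well above background, 47 of them described, and the median lower bound of their rise was 4.32-fold. The reverse held for 67 loci, with a median lower bound of 4.97-fold for the fall. Such loci were picked for being high in 1 group, so their number and direction are a description.

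The falls are known by locus only. Of the 29 loci called lower with Bonferroni adjustment 0 are among the described ones, and the loci singled out here were chosen after their values were seen. LOC_Os07g25060 had signals of 1.21, 1.14 and 1.11 in drought roots, none of them well above background, against 10.35, 10.24 and 11.11 in well-watered roots, so it was lower by a factor of at least 132 (Benjamini-Hochberg adjusted p = 0.000238, limma). LOC_Os10g06140 was at least 44.7-fold lower, LOC_Os02g37190 at least 40.7-fold and LOC_Os10g18760 at least 35.1-fold. Over the 14 loci of this kind the groups did not overlap.

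The 9 falls measured on all 6 arrays were of 1.73 to 5.37 on the log2 scale. LOC_Os07g48030 had 3.72, 5.56 and 3.47 in drought roots, against 8.88, 10.03 and 9.95 in well-watered roots (difference -5.37, SE 0.69). LOC_Os01g72370 stood at 7.61, 7.81 and 7.15 under drought, against 10.28, 11.39 and 10.81 when well watered (difference -3.31, SE 0.41). The smallest of the 9, LOC_Os07g26440, had 7.69, 8.03 and 7.89 in drought roots, against 9.58, 9.47 and 9.75 in well-watered roots (difference -1.73, SE 0.20), so that its arrays were close together within each group.

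**Figure D4:**
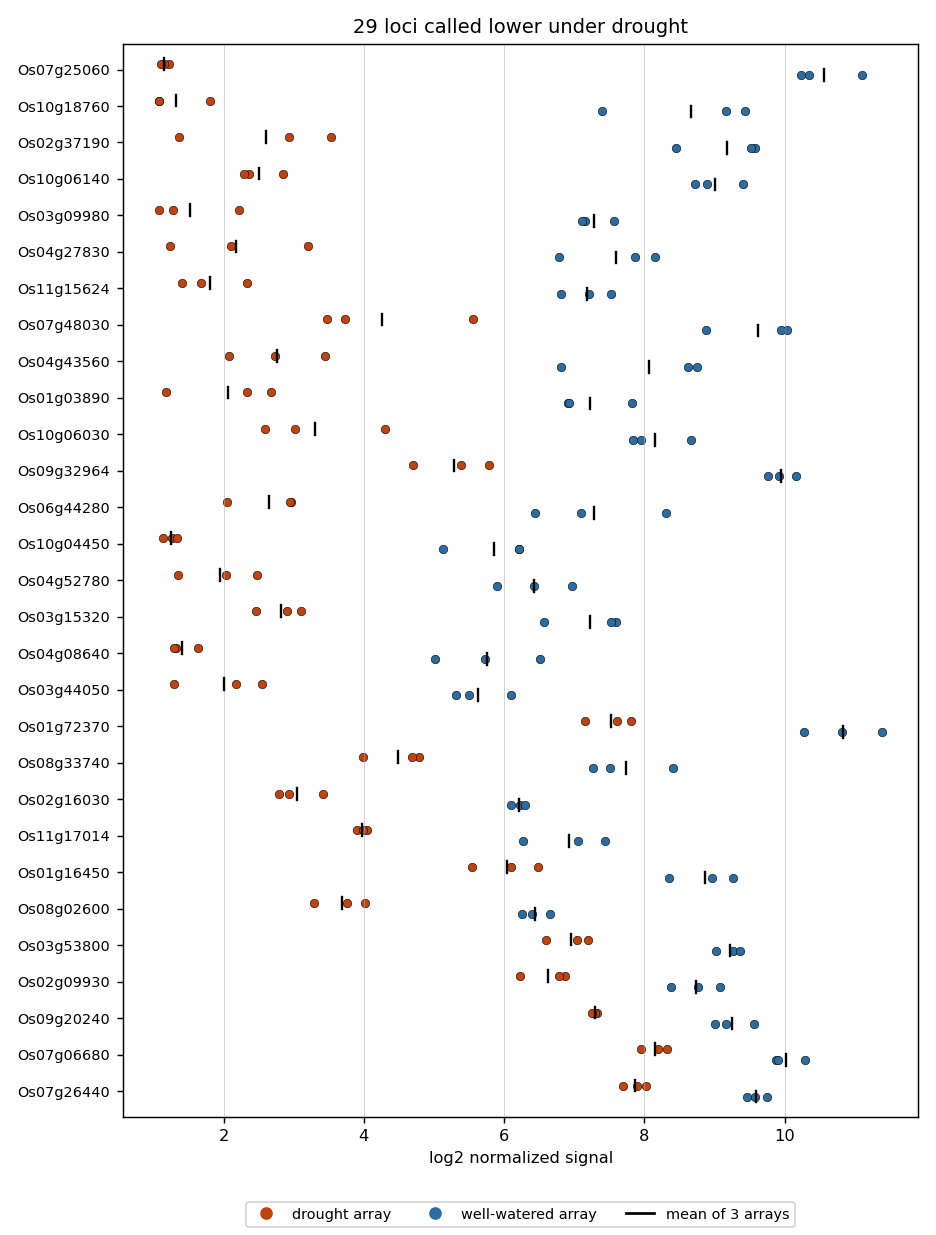
Log2 normalized signal on each of the 3 drought and 3 well-watered arrays of IR64-WT for the 29 loci called lower under drought with Bonferroni adjustment, with the mean of each group as a bar. Drought arrays lie left of well-watered arrays in every row, and 14 of the loci have no drought array well above background.

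The only described locus called lower was a dirigent locus, LOC_Os12g26380, of a family whose proteins guide the coupling of lignan precursors. It had signals of 2.41, 3.98 and 2.36 in drought roots, none of them well above background, against 7.71, 6.96 and 6.71 in well-watered roots, so it was lower by a factor of at least 12 (Benjamini-Hochberg adjusted p = 0.00319, limma).

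Some changed loci lay near each other, with uncalled loci between most of them. Runs of at least 4 loci called in 1 direction, each within 100 locus numbers of the next, numbered 30 for rises (135 loci, 8.08% of those called higher) and 7 for falls (33 loci, 3.41% of those called lower). The dehydrin and small heat shock protein stretches above are 2 of them. Another on chromosome 3 held 3 loci described as cupins, a family that includes seed storage proteins. LOC_Os03g48750, LOC_Os03g48760 and LOC_Os03g48780 had differences of 4.82, 5.45 and 5.01. For LOC_Os03g48750 and LOC_Os03g48760 no well-watered array was well above background, so the size of their rises was not measured. On chromosome 11, LOC_Os11g37950, described as the wound-induced protein WIP3, rose by 5.50 (SE 0.96) and its undescribed neighbour LOC_Os11g37970 by 5.10. Among falls, 6 of 14 loci between LOC_Os08g43800 and LOC_Os08g43940 were lower by 2.16 to 2.72, and 5 of 9 between LOC_Os10g31660 and LOC_Os10g31740 by 2.28 to 5.59. The largest fall of each, at LOC_Os08g43940 and LOC_Os10g31740, had no drought array well above background. Runs were picked for their calls and end at called loci, so these shares are a description, against 1.83% called lower over all loci.

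The same loci were then read in IR64-Tr-E2 and NIL-481-B, each against its own well-watered arrays. With Benjamini-Hochberg adjustment in limma, drought raised 2745 loci (5.19%) and lowered 1571 (2.97%) in IR64-Tr-E2, and raised 198 (0.374%) and lowered 110 (0.208%) in NIL-481-B. Of the 130 rises of IR64-WT, 129 were called in the same direction in IR64-Tr-E2 (99.2%) and 105 in NIL-481-B (80.8%). Of the 29 falls the numbers were 29 and 23 (79.3%). The 130 rises had a median response of 5.31 in IR64-WT, 5.44 in IR64-Tr-E2 and 3.72 in NIL-481-B, and the 29 falls -4.47, -4.005 and -2.70. Since the loci were chosen for a large change in IR64-WT, a smaller median elsewhere is a description.

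Over the wider set, 75.7% of the 1670 rises and 50.7% of the 969 falls of IR64-WT were called in IR64-Tr-E2, and 11.02% and 8.98% in NIL-481-B. In the other direction, 46.05% of the rises and 31.3% of the falls of IR64-Tr-E2 and 92.9% and 79.1% of those of NIL-481-B were called in IR64-WT. The difference between responses itself was called for 0 loci (0%) between IR64-WT and IR64-Tr-E2, where 1771 had an unadjusted p below 0.05 and the lowest Benjamini-Hochberg adjusted p was 0.324 (limma). Between IR64-WT and NIL-481-B it was called for 0 loci (0%), with 1669 at an unadjusted p below 0.05 and a lowest adjusted p of 0.406 (limma). For NIL-481-B the genetic background and the level of the well-watered soil cannot be told apart.

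Among the 12 largest rises, LOC_Os11g26760 had responses of 8.76 in IR64-WT, 8.71 in IR64-Tr-E2 and 7.86 in NIL-481-B. LTPL153 had the widest gap, with 8.14 in IR64-WT, 8.78 in IR64-Tr-E2 and 4.74 in NIL-481-B, and its difference of 3.40 between IR64-WT and NIL-481-B was not called. All 12 were called higher in all 3 genotypes.

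**Figure D5:**
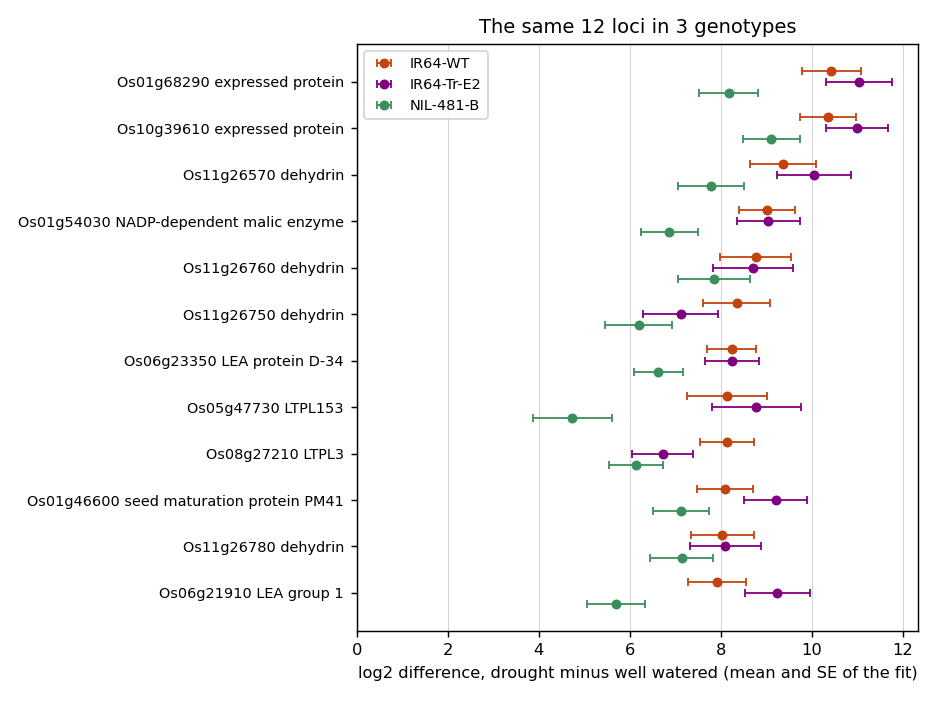
Difference in log2 normalized signal between drought and well-watered roots, with the SE of the limma fit, in IR64-WT, IR64-Tr-E2 and NIL-481-B for the 12 described loci with the largest rises in IR64-WT. All 12 lie above 0 in the 3 genotypes, and NIL-481-B has the smallest response of the 3 in each.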

How the data were processed

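Root RNA was hybridised to 1-colour Agilent arrays (Cy3), 6 of them IR64-WT. Scanner output as deposited gives a processed signal per spot, a linear intensity from which the software had subtracted background and which the authors left without normalization between arrays. The labels name version 11.0 of the software and the file headers 11.5.1.1. A second deposited table holds the authors' log2 values after quantile normalization and centring of each probe, which had a correlation of at least 0.99986 with the values recomputed here. Control spots and the 0 to 17 spots per array marked as outliers were left out, 0 spots were saturated, spots of a probe were averaged, and log2 intensities were quantile normalized over 23 arrays. Each of the 52901 loci had 1 probe. The deposited files held 0 columns of other series.

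All 23 arrays entered a limma 3.58.1 fit (lmFit and eBayes, R 4.3.3) with 8 group means and 15 residual degrees of freedom. All tests were two-sided, p-values were adjusted over the 52901 loci, and the fit was tested on simulated data. Reading and counting used pandas 2.3.3 and numpy 2.4.6 in python 3.11.15. Precision is limited by the number of arrays. Replicate 2 of well-watered Vandana, as labelled, enters the estimate of the spread and went against its label. Over 84 loci whose log2 signal on every drought array of the IR64 lines was more than 3 above that on every drought array of Vandana and NIL-481-B, its median was 6.57, against 6.20 to 7.22 on the 11 arrays of the IR64 lines and 1.33 to 1.61 on the other 11 arrays. Leaving it out gave 122 higher and 25 lower with Bonferroni adjustment.

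Loci were named by rule, as the 12 largest rises and falls among called and described loci that were well above background on all arrays of the brighter group, and in each functional group up to 4 called members with the largest changes and the brightest member. Others named were chosen after their values were seen. Functions came from descriptions of 551 loci that the study gives, and identifiers of the candidate genes and the genes linked to them were matched for 35 of 36. The group members and lists were chosen with earlier results of these data known. No sequences are printed. Alternatives tried were other normalization and background settings, a filter on dim probes, slide or replicate number as a block, fewer arrays, the deposited values and each array left out in turn.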

Additional observations from a re-analysis of the deposited data

How the results depend on the processing

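All 130 rises and 29 falls called with Bonferroni adjustment kept their direction in all alternatives that tested them. The filter on dim probes tested 123 of the 130 rises. Benjamini-Hochberg calls were kept by all of them in every alternative except the fit of the 6 arrays alone, which kept 84 and 25, and the shift to the 75th percentile, which kept 128 and 29. The counts moved more. With Bonferroni adjustment, against 130 higher and 29 lower, the fit of the 6 arrays alone gave 0 and 2 (238 after Benjamini-Hochberg adjustment and 7538 at an unadjusted p below 0.05, limma), and the filter gave 50 lower over fewer loci tested. Benjamini-Hochberg adjustment in place of Bonferroni gave 1670 and 969. Leaving out 1 array gave 79 to 162 higher and 10 to 22 lower. Without the 2 IR64-WT arrays of slide 3, an alternative chosen after seeing the data, 6 were lower.

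With Benjamini-Hochberg adjustment, against 1670 higher and 969 lower, the counts were 978 and 608 after the shift to the 75th percentile, 148 and 90 for the 6 arrays alone, 2877 and 1565 with slide as a block, and 1077 and 532 without the arrays of slide 3. The cause was not tested. Leaving out 1 array gave 648 to 2320 higher and 352 to 1357 lower. Without drought replicate 3 the counts were 648 and 352 (82 and 10 with Bonferroni adjustment), without drought replicate 1 they were 829 and 454 (79 and 11), without well-watered replicate 2 they were 993 and 711 (91 and 15), and without well-watered replicate 3 they were 868 and 557 (89 and 12). Without drought replicate 2 the falls with Bonferroni adjustment numbered 18, and without well-watered replicate 1 no count moved by over 1.5 times. The shift to the 75th percentile moved the median of all loci to -0.48, and 61.7% of its calls were rises, against 63.3% with quantile normalization. The difference between the responses of IR64-WT and IR64-Tr-E2 gave 0 calls in every alternative run. For IR64-WT and NIL-481-B, leaving out 1 array gave 0 to 7 calls (7 without drought replicate 2), and leaving out both arrays of slide 3 gave 7.

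Plants were sown in a randomized complete block design, and it is not stated if replicate numbers stand for its blocks. The deviations of same-numbered arrays had correlations of -0.05, -0.10 and -0.39. Those of arrays on the same slide had 0.41 (slide 3) and 0.03 (slide 2). With 3 arrays in each group, these values cannot decide if the samples are paired. With replicate number as a block, 114 loci were higher and 19 lower with Bonferroni adjustment, against 1686 and 946 with Benjamini-Hochberg adjustment.

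Of 73 named loci called with Benjamini-Hochberg adjustment, 39 lost the call in the fit of the 6 arrays alone and 0 to 10 in the other alternatives. The glutathione S-transferase LOC_Os03g44170 and LOC_Os11g13630, described as a gibberellin receptor, lost it whenever any 1 array was left out. Outside the fit of the 6 arrays alone, all 5 dehydrins and all 12 LEA loci were called in each alternative, against 4 to 9 of the small heat shock proteins, 3 to 6 of the receptor-like kinases, 2 to 4 of the cytokinin loci, 2 to 9 of the cytochromes P450 and 0 to 1 of the aquaporins. That fit called 0 of the MYB, thaumatin, cytokinin and aquaporin loci, 1 of the 3 heat stress factors, 1 of the 3 glycolysis loci and 1 of the 4 ferritins and metallothioneins. No locus had several probes, so a choice between probes was not run. Depth limits the dim side: a locus not well above background has only a bound.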
